A study of Oryza sativa with 80 samples.

Results

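Segment 3 of the rice leaf blade was compared between drought and well-watered seedlings at 30 °C. The 8 libraries were taken by their names in the raw count table, 4 per group, out of 80 libraries in the study. Both groups were Oryza sativa seedlings sampled at midday once the third leaf had fully elongated, and their cultivar is not stated in the labels. W30 is the well-watered group, kept at a soil water content of 3 g/g and 10 days old. D30 is the drought group, kept at 1.5 g/g, where growth is limited, and 12 days old. Leaf age and soil water therefore cannot be told apart in any comparison here. The study also heated other pots at 40 °C for 30 min before collection, giving W40 (3 g/g, 10 days) and D40 (1.5 g/g, 12 days). Blades were cut into segments of equal length, and segments 2, nearest the base, to 6 were sequenced. Each replicate pooled matched segments of 3 leaves, so the 8 libraries are 8 leaf pools. Replicates 1 and 2 of W30 and D30 were in batch 1 and replicates 3 and 4 in batch 2, a batch that the labels name without saying what was shared.

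A leaf that loses water accumulates abscisic acid (ABA), which binds soluble receptors. The bound receptors block clade A PP2C phosphatases, SnRK2 kinases are then released, and these activate bZIP transcription factors at ABA-responsive genes such as those of the dehydrins and other late embryogenesis abundant (LEA) proteins. A blade that completes its growth in dry soil is also known to change its sugar, nitrogen and wall metabolism. The files give genes only as MSU locus IDs, and the RefSeq gene list supplied matched 0 of them. No locus is therefore given a gene name. Loci are described through 37 lists of loci known to the field and 3 lists of markers of other tissues. Membership in a list was written from general knowledge, was not checked against an annotation, and says what a locus was entered as, not what was shown here. Of the 372 listed loci, 371 were in the table.

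Library totals in segment 3 ran from 62793101 to 110038417 raw counts, against 53398019 to 128636996 over the study. In batch 2 the TMM scaling factor, which corrects for the make-up of a library, was 0.891 and 0.872 in W30 and 1.02 and 1.16 in D30. In batch 1 it was 0.966 and 1.07 in W30 and 1.02 and 1.03 in D30. The first principal component held 41.2% of the variance, and 83.6% of that component lay between batches. The second held 30.8%, of which 75.1% lay between soil waters, so batch separated the libraries more than drought did. Markers of other tissues were low in both groups. The 8 loci entered as markers of dividing cells summed to 15.7 to 25.7 CPM (counts per 1000000, TMM-scaled) in W30 and 11.4 to 19.6 in D30, with 2 of them at 0 in all 8 libraries. The 4 root markers summed to 21.0 to 37.1 CPM in W30 and 14.1 to 20.4 in D30, with 1 at 0 throughout, and the 2 endosperm markers to 0.221 to 3.50 CPM and 0.188 to 0.545 CPM. Of the 3 dividing-cell markers tested, LOC_Os06g14620 fell with a log2 change of -0.75 (SE 0.17, edgeR adjusted p = 0.024), a call lost without W30 replicate 4 or without D30 replicates 1, 2 or 3. Of the 2 root markers tested, LOC_Os02g51110 fell with a log2 change of -0.78 (SE 0.11, edgeR adjusted p = 0.00397). The part of either in the results below was not tested.

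Under drought, 1344 loci were higher and 1405 lower in segment 3, which is 12.9% of the 21328 tested (6.3% higher and 6.59% lower; edgeR quasi-likelihood test with a batch term, adjusted p under 0.05). The median log2 change was 1.10 among the raised loci, of which 733 passed 1 and 127 passed 3. Among the lowered loci the median was -0.95, with 650 past -1 and 135 past -3. At an unadjusted p under 0.05 there were 6156 loci (28.9%). Without regard to any test, 12.8% of the loci had groups whose CPM did not overlap, 6.7% with D30 above and 6.14% with D30 below. The number called depended on single libraries. It was 1282 without W30 replicate 4, 1546 without W30 replicate 3, 1770, 1664, 1503 and 1602 without D30 replicates 1 to 4, and 3059 without W30 replicate 1. It was 3779 without W30 replicate 2. With the replicate number as a block in place of the batch it was 1198. Scaling by library totals alone called 2378 loci, 64% of them higher against 48.9% in the main test, and moved the median log2 change of all loci from -0.01 to 0.14. In bulk samples, fewer cells of a type and less RNA per cell cannot be told apart.

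Of the 327 listed loci tested outside the marker lists, 69 rose and 28 fell, which is 21.1% and 8.56%, against 6.3% and 6.59% of all loci. Batch 1 alone called 27 of 322 higher (8.39%) and 11 lower (3.42%), against 1.06% and 1.16% of all loci. Batch 2 alone called 116 of 331 higher (35%) and 63 lower (19%), against 16.3% and 15.5%. More calls in a list in batch 2 thus go with more calls over all loci. Members of the PP2C and LEA lists were among the raised loci, 6 of 7 type A response regulators fell, and the lists for light harvesting and chlorophyll synthesis held no call over both batches. In batch 2 alone, 8 of 12 chlorophyll synthesis loci fell. Below, levels are given for replicates 1, 2, 3 and 4 in that order.

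**Figure D1:**
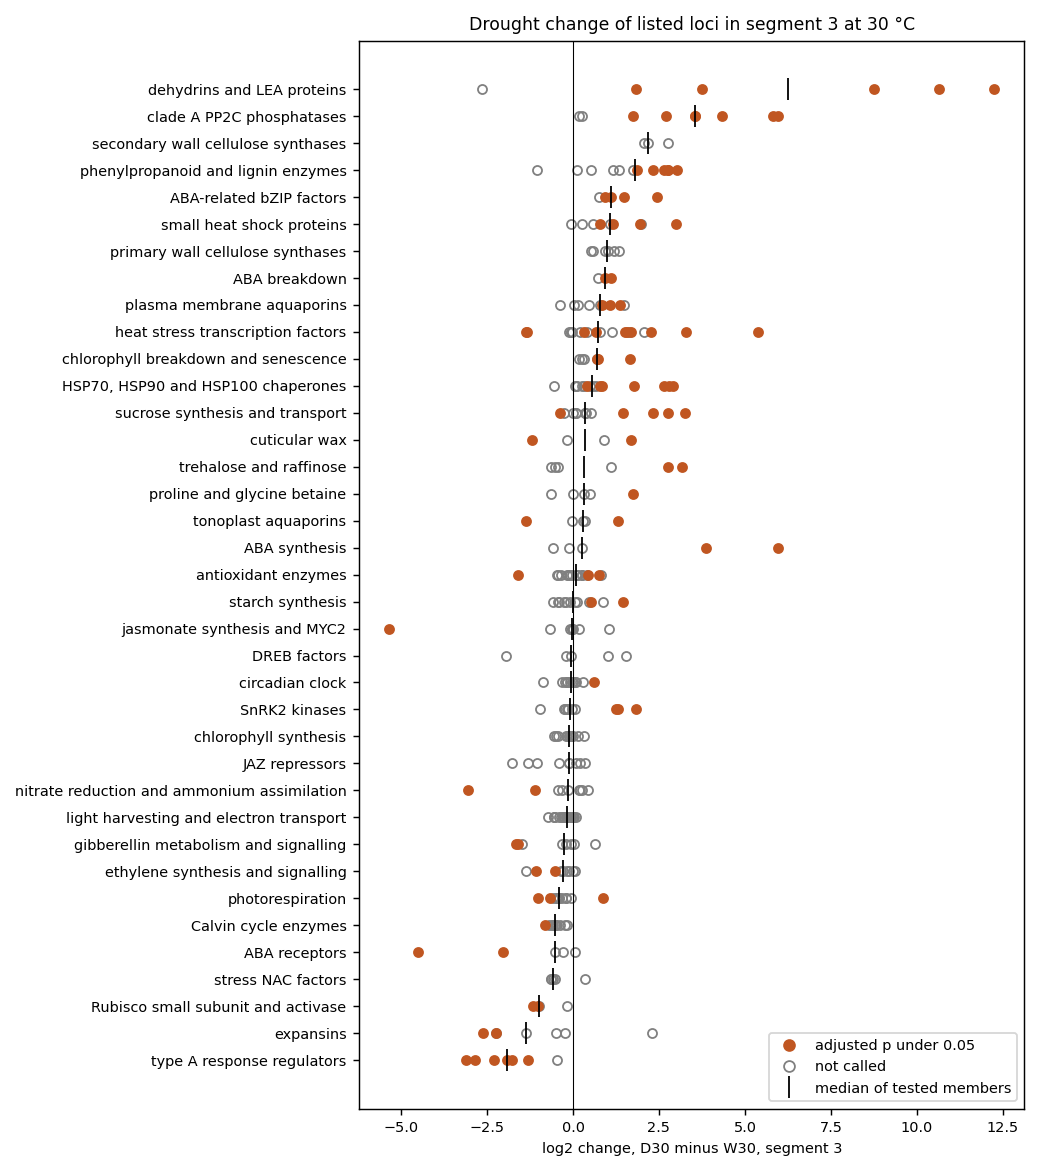
Log2 change of D30 against W30 in segment 3 (x axis) for each tested member of 37 lists (y axis, sorted by median). Filled points passed an adjusted p of 0.05, open points did not, and the tick is the list's median. The LEA and PP2C lists stand at the top with medians of 6.25 and 3.54, and the type A response regulator list at the bottom with -1.91.

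In the ABA lists, the synthesis, breakdown, phosphatase, kinase and bZIP members that passed the test all rose, and the receptor members that passed it fell. Of 5 ABA synthesis loci, 2 rose. LOC_Os03g44380 was at 0.206, 0.0742, 0.484 and 0.477 CPM in W30 and at 12.4, 17.7, 23.0 and 19.6 CPM in D30. This locus was below 1 CPM in every watered leaf pool and above 10 CPM in every drought pool, a log2 change of 5.97 (SE 0.34, edgeR adjusted p = 8.13e-05). The other, LOC_Os07g05940, was low throughout, at 0, 0, 0.0645 and 0.364 CPM in W30 and 0.493, 0.395, 2.69 and 1.06 CPM in D30. Its groups did not overlap and it had a log2 change of 3.87 (SE 0.83, edgeR adjusted p = 0.0197), a call lost without W30 replicate 3 or without D30 replicate 3. The list's median change was 0.26. Of 3 loci entered for ABA breakdown, the enzymes that oxidise ABA, 2 rose. LOC_Os09g28390 was at 10.5, 9.49, 24.4 and 24.3 CPM in W30 and at 30.1, 30.0, 39.7 and 34.7 CPM in D30. For it, every D30 library lay above every W30 library, with a log2 change of 1.10 (SE 0.19, edgeR adjusted p = 0.00916). The interaction with batch was called for this locus alone among the 3, with the smaller rise in batch 2. LOC_Os08g36860 had a log2 change of 0.94 (SE 0.23, edgeR adjusted p = 0.0322), with overlapping groups, and its call was lost without W30 replicates 1, 3 or 4 or without D30 replicates 1, 2 or 3.

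Clade A PP2C phosphatases are the negative regulators of the pathway, and ABA is known to induce them. Of 9 loci, 7 rose and none fell, with a median log2 change of 3.54, and the number was 6 or 7 with any 1 library left out. LOC_Os09g15670 was at 0.664, 0.178, 0.791 and 1.32 CPM in W30 and at 32.2, 37.2, 57.4 and 49.2 CPM in D30. The drought pools were all above 30 CPM and the watered pools all below 2 CPM, a log2 change of 5.96 (SE 0.36, edgeR adjusted p = 0.000105). LOC_Os03g16170 was at 8.78, 4.29, 2.16 and 2.86 CPM in W30 and at 70.8, 79.3, 33.8 and 25.9 CPM in D30. Here too every D30 library lay above every W30 library, and the log2 change was 3.54 (edgeR adjusted p = 0.00013). The 7 raised members ran in log2 change from 1.73 to 5.96.

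Receptor loci went the other way. Of 5 tested, 2 fell, with a list median of -0.53 and with 1 to 3 falling when a library was left out. LOC_Os03g18600 was at 24.4, 80.4, 51.3 and 56.5 CPM in W30 and at 1.12, 0.994, 4.80 and 4.35 CPM in D30. All 4 drought pools were below 5 CPM while the watered pools spanned a wide range above 20 CPM, a log2 change of -4.52 (SE 0.55, edgeR adjusted p = 0.00203). LOC_Os02g13330 was below 1 CPM in all libraries, at 0.411, 0.505, 0.597 and 0.978 CPM in W30 and 0.116, 0.109, 0.211 and 0.172 CPM in D30. It had a log2 change of -2.03 (SE 0.36, edgeR adjusted p = 0.00984), lost without W30 replicate 4. Among the SnRK2 kinases, 3 of 10 rose, the rest did not pass, and the list median was -0.07. LOC_Os10g41490 was at 7.37, 8.34, 6.23 and 7.42 CPM in W30 and at 27.3, 26.2, 25.9 and 25.7 CPM in D30. The spread within each group was narrow for this locus in both batches, and it had a log2 change of 1.84 (SE 0.10, edgeR adjusted p = 6.88e-05). LOC_Os01g64970, with 14.2, 17.8, 25.7 and 27.6 CPM in W30 and 36.0, 36.8, 69.5 and 64.5 CPM in D30, had a log2 change of 1.26 (SE 0.10, edgeR adjusted p = 0.00029). Both of its groups were higher in batch 2 than in batch 1, and they did not overlap. Of 5 bZIP factors, the transcription factors that SnRK2 kinases phosphorylate, 4 rose, with a list median of 1.11. LOC_Os02g52780 was at 8.13, 5.75, 8.47 and 7.08 CPM in W30 and at 38.5, 43.1, 43.9 and 33.4 CPM in D30. This amounts to a log2 change of 2.43 (SE 0.15, edgeR adjusted p = 0.000127), with no overlap. LOC_Os01g64730 was at 7.67, 7.45, 7.68 and 6.90 CPM in W30 and at 15.9, 15.97, 18.3 and 13.9 CPM in D30. Its 4 watered libraries were within 1 CPM of each other, and the log2 change was 1.11 (edgeR adjusted p = 0.000922).

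**Figure D2:**
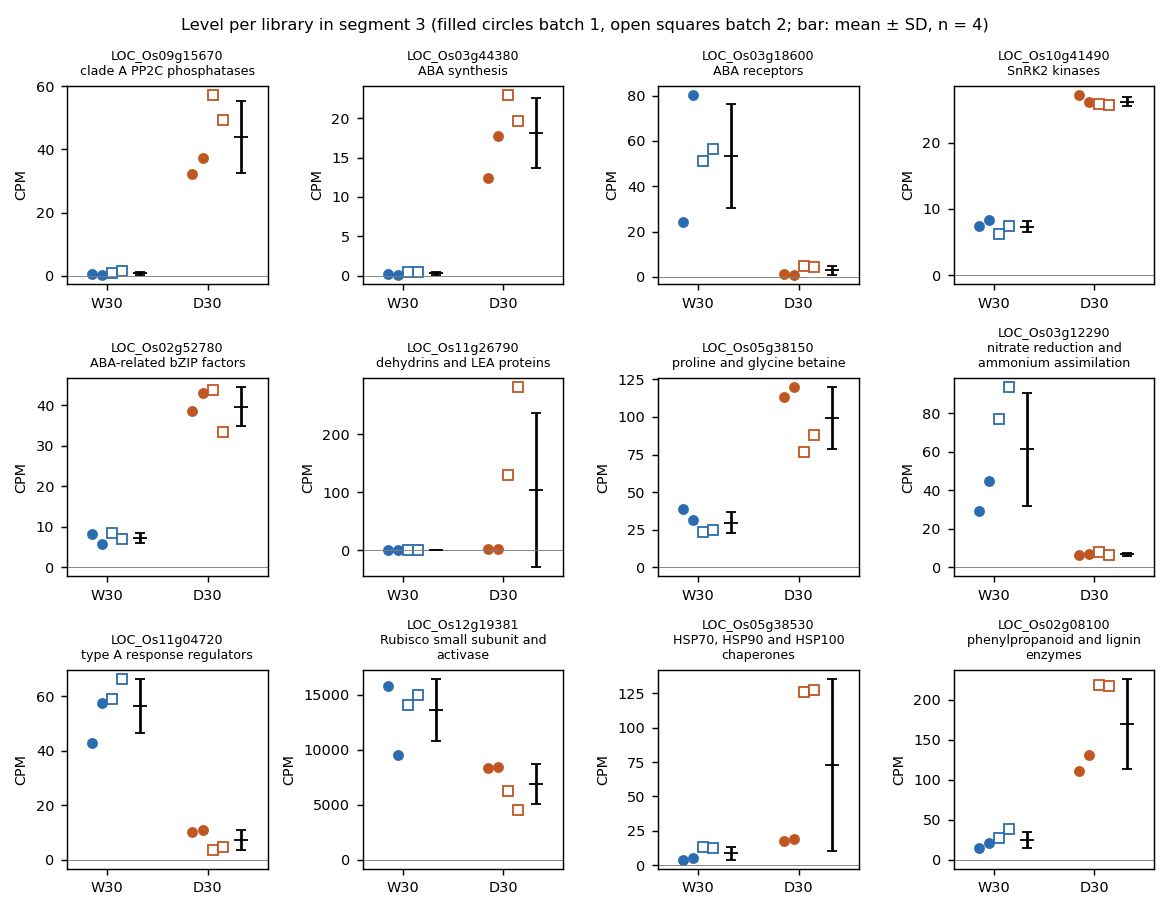
Level in CPM (y axis, from each panel's own scale) of 12 loci in the 4 W30 and 4 D30 libraries of segment 3. Circles are batch 1, squares batch 2, and the bar is the mean ± SD of 4 libraries. Groups do not overlap in any of the 12 panels, and for the LEA locus LOC_Os11g26790 and the chaperone locus LOC_Os05g38530 the batch 2 drought libraries stand far above those of batch 1.

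Dehydrins and LEA proteins, hydrophilic proteins that accumulate in drying tissue, held the 2 largest rises among all loci with at least 5 CPM on average and groups that did not overlap. Of 6 tested members, 5 rose, 4 to 6 with a library left out, and the median log2 change was 6.25. By batch, 1 of 5 rose in batch 1 alone (20%, against 1.06% of all loci), with a median of 2.09. Batch 2 alone had 6 of 7 raised (85.7%, against 16.3%) and 1 lowered, with a median of 9.61. The interaction with batch was called for 0 of 7. LOC_Os11g26790 was at 0, 0, 0 and 0.0682 CPM in W30 and at 1.13, 1.55, 129.6 and 282 CPM in D30. Its reads in W30 were 6 counts, all in replicate 4, against 49162 counts over the D30 libraries, and the fitted log2 change was 12.25 (edgeR adjusted p = 5.96e-05). The drought level itself differed widely between batches, from just above 1 CPM in batch 1 to over 100 CPM in batch 2. LOC_Os11g26780 was at 0, 0, 0.0161 and 0.0114 CPM in W30 and at 0.536, 0.722, 16.1 and 35.5 CPM in D30. With 2 counts in W30 and 6233 in D30, the ratio was 2362 (95% exact interval 653.5 to 19500, counting error only; edgeR adjusted p = 5.68e-05). That interval pools the libraries of each group and leaves out the spread between libraries and batches. It also takes each count as independent, although counts overstate independent fragments, so it is too narrow. LOC_Os11g26790 and LOC_Os11g26780 are neighbouring loci and may share reads if they are near-identical copies, which was not checked. LOC_Os02g44870 was expressed in watered leaves as well, at 4.36, 6.25, 12.9 and 14.1 CPM in W30 and 10.4, 18.03, 75.9 and 48.7 CPM in D30. It was higher in batch 2 in both groups, the groups overlapped, and it had a log2 change of 1.82 (SE 0.26, edgeR adjusted p = 0.00387).

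Of the DREB factors, best known from an ABA-independent route, and the stress NAC factors, many of which ABA induces, none passed the test over both batches. By edgeR, 0 of 5 DREB factors and 0 of 5 stress NAC factors were called, with list medians of -0.05 and -0.59. At an unadjusted p under 0.05 there were 0 DREB and 3 NAC loci, and DESeq2 called 0 and 2. Batch 1 alone called 0 of 4 and 0 of 5. Batch 2 alone called 2 of 6 DREB loci lower (33.3%, against 15.5% of all loci). Among 6 NAC loci it called 1 higher (16.7%, against 16.3%) and 2 lower (33.3%). The interaction with batch was called for 0 of 5 DREB and 1 of 6 NAC loci. LOC_Os05g27930, the DREB member with the highest mean level, had a log2 change of -0.21 (SE 0.13, edgeR adjusted p = 0.335), and LOC_Os01g66120, the NAC member with the highest level, a log2 change of -0.52 (SE 0.17, edgeR adjusted p = 0.0866). The groups overlapped for both. With W30 replicate 2 left out, LOC_Os01g66120 was called as lower, and the NAC list held 0 to 2 falls as single libraries were left out.

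Enzymes of compatible solutes and sugars rose in part. Of 5 loci for proline and glycine betaine, small solutes that hold water in the cell, 1 rose. LOC_Os05g38150 was at 39.1, 31.2, 23.6 and 25.0 CPM in W30 and at 113, 119.7, 76.7 and 87.6 CPM in D30. The step was alike in both batches, with log2 changes of 1.73 in batch 1 and 1.79 in batch 2, and overall it had a log2 change of 1.74 (SE 0.11, edgeR adjusted p = 0.000104). Of 6 loci for trehalose and raffinose, 2 rose. LOC_Os07g48830 was at 1.08, 0.208, 1.52 and 1.43 CPM in W30 and at 4.61, 7.35, 15.3 and 10.00 CPM in D30. Both batches moved alike and the groups did not overlap, with a log2 change of 3.16 (SE 0.42, edgeR adjusted p = 0.00295). LOC_Os03g20120 was at 2.23, 1.17, 3.08 and 6.63 CPM in W30 and at 5.97, 8.84, 53.7 and 43.7 CPM in D30. This second locus rose with a log2 change of 2.75 (SE 0.37, edgeR adjusted p = 0.00319), although its groups overlapped through the high W30 replicate 4. In sucrose synthesis and transport, 4 of 13 rose and 1 fell, with a list median of 0.35. LOC_Os12g29220 was at 2.29, 2.82, 2.90 and 2.50 CPM in W30 and at 8.46, 12.2, 48.7 and 72.0 CPM in D30. All watered pools were below 3 CPM, and the drought pools of batch 2 were several times those of batch 1. It had a log2 change of 3.27 (SE 0.52, edgeR adjusted p = 0.00622). LOC_Os03g07480 had 19.3, 20.8, 16.99 and 13.8 CPM in W30 and 34.9, 38.6, 52.4 and 72.9 CPM in D30, a log2 change of 1.45 (SE 0.24, edgeR adjusted p = 0.00776). Of 12 starch synthesis loci, 2 rose, with a list median of -0.01. LOC_Os06g06560 was at 20.5, 19.5, 36.9 and 32.9 CPM in W30 and at 44.8, 41.8, 119 and 121 CPM in D30. For it every D30 library lay above every W30 library, with a log2 change of 1.45 (SE 0.15, edgeR adjusted p = 0.000856). LOC_Os06g51084 had a log2 change of 0.51 (SE 0.12, edgeR adjusted p = 0.0287), with overlapping groups and a call lost without W30 replicates 3 or 4 or without D30 replicates 1, 2, 3 or 4.

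Aquaporins, the water channels of the plasma membrane (PIP) and the vacuole (TIP), changed in a few members. Of 9 PIP loci, 3 rose, 1 to 4 with a library left out, and the list median was 0.79. LOC_Os02g44630 was at 371, 295, 500.1 and 542 CPM in W30 and at 746, 742, 1536 and 1607 CPM in D30. Every drought pool was above every watered pool, with a log2 change of 1.38 (SE 0.15, edgeR adjusted p = 0.00115). LOC_Os04g16450 had a log2 change of 1.08 (SE 0.29, edgeR adjusted p = 0.0454), with overlapping groups and a call lost without W30 replicates 2, 3 or 4 or without D30 replicates 2, 3 or 4. Of 5 TIP loci, 1 rose and 1 fell. LOC_Os01g74450 was at 343, 251, 597 and 554 CPM in W30 and at 579, 538, 1940.2 and 1766 CPM in D30. The drought level lay above the watered one within each batch although the groups overlapped across batches, and the log2 change was 1.30 (edgeR adjusted p = 0.00508). LOC_Os05g14240 was at 300.4, 427, 9.04 and 13.7 CPM in W30 and at 166, 131, 3.09 and 5.42 CPM in D30. Batch set the level of this locus by more than an order of magnitude, and within each batch drought was lower, an overall log2 change of -1.35 (SE 0.23, edgeR adjusted p = 0.0073). Of 4 cuticular wax loci, LOC_Os02g08230 rose, with 0.632, 0.906, 0.532 and 0.693 CPM in W30 and 2.83, 2.34, 1.78 and 1.99 CPM in D30 and a log2 change of 1.68 (SE 0.23, edgeR adjusted p = 0.00317). LOC_Os09g25850 fell, with 16.2, 16.95, 11.4 and 14.01 CPM in W30 and 6.77, 8.10, 5.19 and 5.87 CPM in D30 and a log2 change of -1.18 (SE 0.12, edgeR adjusted p = 0.000775). Neither pair of groups overlapped.

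No locus of the light reactions was called over both batches in the photosynthesis lists, and a few abundant loci of carbon fixation fell. By edgeR, 0 of 22 loci for light harvesting and electron transport were called (1 at an unadjusted p under 0.05, and 1 by DESeq2), and the list median was -0.19. LOC_Os01g41710, the member with the highest mean level, was at 21604, 24014, 21900.0 and 25737 CPM in W30 and 38281, 37746, 16601 and 10034 CPM in D30. Drought was the higher pair in batch 1 and the lower pair in batch 2, with an overall log2 change of -0.05 (SE 0.35, edgeR adjusted p = 0.945) and a difference between batches of -1.58 (SE 0.37, edgeR adjusted p = 0.0447). By edgeR, 0 of 12 chlorophyll synthesis loci were called (0 at an unadjusted p under 0.05, and 0 by DESeq2), and LOC_Os01g17170, the highest of them, had a log2 change of 0.15 (SE 0.34, edgeR adjusted p = 0.803). These 2 lists had batch medians on opposite sides of 0. Chlorophyll synthesis had a median log2 change of 0.41 in batch 1, where 0 of 12 loci were called, and of -0.63 in batch 2, where 8 of 12 (66.7%) fell against 15.5% of all loci. The interaction with batch was called for 3 of 12 (25%), against 3.33% of all loci in that direction. LOC_Os03g36540 was at 451, 436, 731 and 780.1 CPM in W30 and at 569, 569, 353 and 278 CPM in D30. Drought was the higher pair in batch 1 and the lower pair in batch 2, with log2 changes of 0.36 in batch 1 and -1.23 in batch 2 and a difference of -1.62 (SE 0.22, edgeR adjusted p = 0.0103), not called without W30 replicates 3 or 4 or without D30 replicates 1 or 2. Light harvesting had medians of 0.19 and -0.57, with 3 of 22 loci lower in batch 2 (13.6%). Of 4 loci for the Rubisco small subunit and Rubisco activase, 2 fell, and the list's median was -0.99. Batch 1 alone called 0 of the 4, with a median of -0.67. Batch 2 alone called 3 lower (75%, against 15.5% of all loci), with a median of -1.28, and the interaction was called for 0. LOC_Os12g19381 was at 15824, 9505, 14058 and 14940.0 CPM in W30 and at 8354, 8389, 6265 and 4545 CPM in D30. W30 replicate 2 lay close to the drought libraries, and the groups were just apart, with a log2 change of -1.01 (SE 0.26, edgeR adjusted p = 0.0366). Its call was lost without W30 replicates 1, 3 or 4 or without D30 replicates 1, 2, 3 or 4. LOC_Os12g19470 was at 6023, 3493, 5433 and 5451 CPM in W30 and at 2673, 2721, 2322 and 1532 CPM in D30. This locus had a log2 change of -1.16 (SE 0.25, edgeR adjusted p = 0.0196), lost without W30 replicates 3 or 4 or without D30 replicate 3. On log2(FPKM + 1) limma called 0 of the 4 loci. Reads may be split between these loci if they are near-identical copies, which was not checked.

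In the Calvin cycle, 1 of 11 loci fell (9.09%, against 6.59% of all loci), and the median of the list was -0.52. In batch 2 alone 7 of 11 fell (63.6%, against 15.5% of all loci), in batch 1 alone 0, and the interaction was called for 0. LOC_Os07g08030 had a log2 change of -0.81 (SE 0.22, edgeR adjusted p = 0.0467), with overlapping groups, and its call was lost without W30 replicates 1, 3 or 4 or without D30 replicates 1, 2, 3 or 4. The number of Calvin cycle falls ran from 0 to 8 as single libraries were left out. Photorespiration, which recycles the product of Rubisco's oxygenation, had 2 falls and 1 rise among 12 loci, with a list median of -0.41 and 0 to 6 falls as libraries were left out. LOC_Os01g51410 was at 1028, 1229, 2692 and 2903 CPM in W30 and at 2217, 2359, 4775 and 4601 CPM in D30. Both groups were higher in batch 2, drought was higher within each batch, and the locus rose with a log2 change of 0.88 (SE 0.14, edgeR adjusted p = 0.00699). LOC_Os10g37180 was at 1516, 739, 802 and 791 CPM in W30 and at 570.0, 565, 444 and 338 CPM in D30. W30 replicate 1 stood far above the other watered pools, and the groups did not overlap. The locus had a log2 change of -1.01 (SE 0.22, edgeR adjusted p = 0.0215), lost without W30 replicates 3 or 4 or without D30 replicates 1, 2, 3 or 4. Of 7 loci for chlorophyll breakdown and senescence, 3 rose and none fell, with a list median of 0.70, and 0 were called by limma on log2(FPKM + 1). Batch 1 alone called 0 of the 7, and batch 2 alone called 5 higher (71.4%, against 16.3% of all loci). The interaction was called for 1. LOC_Os06g24730 was at 35.1, 42.4, 27.7 and 34.0 CPM in W30 and at 57.4, 50.9, 60.0 and 58.9 CPM in D30. Its groups did not overlap and it had a log2 change of 0.71 (SE 0.13, edgeR adjusted p = 0.0116). LOC_Os03g05310 had a log2 change of 0.70 (SE 0.16, edgeR adjusted p = 0.0227), lost without W30 replicates 3 or 4 or without D30 replicates 3 or 4.

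Nitrogen assimilation held a strong fall in 1 locus. Of 9 loci for nitrate reduction and ammonium assimilation, 2 fell and none rose, 2 or 3 with a library left out, and the list median was -0.16. In batch 2 alone 4 of 9 rose (44.4%, against 16.3% of all loci) and 3 fell, and in batch 1 alone 1 fell. The interaction with batch was called for 2 of 9, each with the higher change in batch 2. LOC_Os03g12290 was at 29.5, 45.0, 76.9 and 93.8 CPM in W30 and at 6.32, 6.75, 7.94 and 6.34 CPM in D30. The drought pools were within 2 CPM of each other in both batches while the watered pools ranged widely above 29 CPM, a log2 change of -3.05 (SE 0.26, edgeR adjusted p = 0.000382). LOC_Os08g36500 was at 9.87, 10.5, 9.26 and 13.5 CPM in W30 and at 5.61, 4.82, 5.39 and 4.13 CPM in D30. This also left the groups apart, with a log2 change of -1.11 (SE 0.17, edgeR adjusted p = 0.00441).

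Type A response regulators are genes that cytokinin, a hormone of cell division and leaf greenness, is known to induce quickly and that damp its signal. Of 7 loci, 6 fell and none rose, 4 to 6 with a library left out, and the median log2 change was -1.91. LOC_Os11g04720 was at 42.8, 57.5, 59.2 and 66.3 CPM in W30 and at 10.0, 10.8, 3.55 and 4.55 CPM in D30. The drought level was far below the watered level in batch 1 and lower still in batch 2, an overall log2 change of -3.11 (SE 0.35, edgeR adjusted p = 0.00145). LOC_Os04g36070 was at 17.00, 7.65, 6.57 and 7.57 CPM in W30 and at 3.94, 3.42, 0.952 and 1.01 CPM in D30. Again every D30 library lay below every W30 library, with a log2 change of -2.28 (SE 0.32, edgeR adjusted p = 0.00344). LOC_Os12g04500 was at 88.9, 104, 167 and 158 CPM in W30 and 25.7, 27.9, 11.7 and 10.4 CPM in D30, with a log2 change of -2.86 (SE 0.40, edgeR adjusted p = 0.00387). Its change differed between the batches, at -1.85 in batch 1 and -3.85 in batch 2, a difference of -2.03 (SE 0.18, edgeR adjusted p = 0.00429). Of 8 loci for gibberellin, a hormone of elongation, 2 fell, with a list median of -0.26. LOC_Os03g63970 was at 20.4, 12.9, 14.4 and 13.6 CPM in W30 and at 8.35, 7.03, 2.99 and 2.98 CPM in D30. Here every D30 library lay below every W30 library, and it had a log2 change of -1.67 (SE 0.25, edgeR adjusted p = 0.00503). LOC_Os01g66100 was at 1.38, 2.14, 14.7 and 10.7 CPM in W30 and 0.681, 0.3, 4.22 and 5.28 CPM in D30. Its groups overlapped across batches but not within them, with a log2 change of -1.61 (SE 0.28, edgeR adjusted p = 0.00825).

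Of 7 expansins, proteins that loosen walls during growth, 2 fell, both at low levels, and the list median was -1.37. In batch 2 alone 2 other expansins rose (28.6%, against 16.3% of all loci) and 0 fell. LOC_Os04g15840, 1 of these, had log2 changes of -0.05 in batch 1 and 4.31 in batch 2. The difference was 4.32 (SE 0.62, edgeR adjusted p = 0.0116), not called without D30 replicates 1, 2 or 4. On log2(FPKM + 1), limma called 0 expansins and 0 ethylene loci. LOC_Os05g39990 was at 3.62, 2.73, 8.49 and 5.25 CPM in W30 and 0.638, 0.708, 2.58 and 0.375 CPM in D30, a log2 change of -2.23 (SE 0.51, edgeR adjusted p = 0.0257) lost without W30 replicates 3 or 4 or without D30 replicates 1 or 2. LOC_Os10g40700, below 1 CPM in all libraries, had a log2 change of -2.62 (SE 0.64, edgeR adjusted p = 0.0327), lost without W30 replicates 1, 3 or 4 or without D30 replicates 1, 2 or 4. Of 9 ethylene loci, 2 fell, with a list median of -0.30. LOC_Os03g20780 had a log2 change of -0.53 (SE 0.10, edgeR adjusted p = 0.0136), lost without W30 replicate 4 or without D30 replicate 1. LOC_Os02g57530 had a log2 change of -1.07 (SE 0.22, edgeR adjusted p = 0.0182), lost without W30 replicates 3 or 4 or without D30 replicates 2, 3 or 4. By edgeR, 0 of 9 JAZ repressors, the brakes on jasmonate signalling, were called (1 at an unadjusted p under 0.05, and 1 by DESeq2). Of 8 jasmonate synthesis loci, 1 fell (12.5%, against 6.59% of all loci). Batch 1 alone called 1 of 9 JAZ loci lower and 0 of 8 synthesis loci. Batch 2 alone called 1 of 9 (11.1%) and 2 of 8 (25%) higher, against 16.3% of all loci, and none lower. The interaction with batch was called for 1 locus of each list, with the higher change in batch 2. LOC_Os08g39840 was at 0.49, 34.2, 4.08 and 16.7 CPM in W30 and at 0.304, 0.0817, 0.932 and 0.0469 CPM in D30. The watered pools themselves spanned a wide range and the groups overlapped, a log2 change of -5.34 (SE 1.40, edgeR adjusted p = 0.0416) lost without W30 replicates 2, 3 or 4 or without D30 replicates 1, 2 or 4. Of 12 clock loci, 1 rose (8.33%, against 6.3% of all loci). Batch 1 alone called 1 higher, and batch 2 alone called 0 higher and 1 lower. LOC_Os08g06110 was at 39.5, 33.3, 425 and 350.4 CPM in W30 and at 66.0, 71.2, 514 and 436 CPM in D30. The batches differed far more than the soil waters at this locus, with a log2 change of 0.60 (SE 0.17, edgeR adjusted p = 0.0483) lost without W30 replicates 1, 2 or 4 or without D30 replicates 1, 2 or 3.

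Phenylpropanoid and lignin enzymes, which make the phenolic polymers of walls, rose in 6 of 12 tested loci with none falling. The median log2 change was 1.80, and with a library left out 5 to 8 rose and 0 to 1 fell. Batch 1 alone called 4 of 12 higher (33.3%, against 1.06% of all loci) and 1 lower. Batch 2 alone called 10 of 12 higher (83.3%, against 16.3%) and none lower. The interaction was called for 4 of 13, each with the higher change in batch 2. LOC_Os02g08100 was at 14.1, 20.7, 27.6 and 37.9 CPM in W30 and at 111, 131, 218 and 217 CPM in D30. The step was equal in the batches, with log2 changes of 2.80 in batch 1 and 2.76 in batch 2, and it had a log2 change of 2.76 (SE 0.17, edgeR adjusted p = 9.59e-05). LOC_Os02g09490 was at 2.80, 1.72, 2.48 and 2.90 CPM in W30 and at 9.75, 10.7, 16.6 and 13.8 CPM in D30. Here also every D30 library lay above every W30 library, with a log2 change of 2.34 (SE 0.18, edgeR adjusted p = 0.000264).

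Chaperones, which refold proteins, and the heat stress transcription factors, which switch on chaperone genes, rose in part in drought leaves that had not been heated. Of 16 HSP70, HSP90 and HSP100 loci, 7 rose and none fell, 4 to 11 with a library left out, and the list median was 0.54. In batch 1 alone 2 of 15 rose (13.3%, against 1.06% of all loci). In batch 2 alone 11 of 16 rose (68.8%, against 16.3%) and 1 fell. LOC_Os05g38530 was at 4.25, 5.34, 13.6 and 12.3 CPM in W30 and at 17.8, 19.3, 126 and 128 CPM in D30. The rise was present in both batches and larger in batch 2, with a log2 change of 2.63 (SE 0.27, edgeR adjusted p = 0.000923). LOC_Os05g44340 was at 1.72, 1.04, 1.05 and 1.30 CPM in W30 and at 5.72, 6.05, 13.3 and 13.2 CPM in D30. All watered pools were below 2 CPM and all drought pools above 5 CPM, with a log2 change of 2.80 (SE 0.32, edgeR adjusted p = 0.00144). Of 9 small heat shock protein loci, 4 rose, 1 to 6 with a library left out, and the list median was 1.08. In batch 1 alone 0 of 9 were called, with a median of 0.55. In batch 2 alone 8 of 10 rose (80%, against 16.3% of all loci), with a median of 1.62, and the interaction was called for 2 of 10. With the replicate number as a block 1 of 10 rose. LOC_Os01g04370 was at 0.221, 0.0891, 0.452 and 0.273 CPM in W30 and at 1.14, 0.858, 2.71 and 4.13 CPM in D30. These are low levels, the groups did not overlap, and the log2 change was 2.99 (edgeR adjusted p = 0.00214). LOC_Os01g08860 had a log2 change of 0.79 (SE 0.16, edgeR adjusted p = 0.0145), lost without W30 replicate 4. Of 20 heat stress transcription factors, 8 rose and 2 fell, with a list median of 0.73. LOC_Os09g35790 was at 7.15, 11.5, 9.15 and 9.75 CPM in W30 and at 28.3, 28.7, 37.6 and 25.6 CPM in D30. This locus had no overlap between groups and a log2 change of 1.68 (SE 0.18, edgeR adjusted p = 0.000998). LOC_Os07g08140 was at 0.648, 0.52, 0.887 and 0.898 CPM in W30 and at 2.88, 3.17, 4.71 and 3.45 CPM in D30. Its drought level was several times the watered level in both batches, with a log2 change of 2.28 (SE 0.20, edgeR adjusted p = 0.000444). Of 17 antioxidant loci, 2 rose and 1 fell (11.8% and 5.88%, against 6.3% and 6.59% of all loci). LOC_Os07g49400 had a log2 change of 0.76 (SE 0.18, edgeR adjusted p = 0.0295), lost without W30 replicates 3 or 4 or without D30 replicates 2, 3 or 4. LOC_Os02g02400 was at 1700.0, 1479, 740.2 and 693 CPM in W30 and at 967, 1029.8, 152 and 100.1 CPM in D30. Drought was lower within each batch, mostly in batch 2, with a log2 change of -1.59 (SE 0.38, edgeR adjusted p = 0.0291) lost without W30 replicates 3 or 4 or without D30 replicates 3 or 4.

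Outside the lists, among loci with a mean of at least 5 CPM and groups apart, the largest falls were at LOC_Os07g04930 and LOC_Os01g72370, for which no annotation was at hand. LOC_Os07g04930 was at 16.9, 3.99, 69.8 and 74.5 CPM in W30 and at 0, 0.0817, 0.0602 and 0.328 CPM in D30. Every drought pool was below 1 CPM, with a log2 change of -8.35 (SE 0.73, edgeR adjusted p = 0.000476). LOC_Os01g72370 was at 158, 27.3, 271 and 484 CPM in W30 and at 0.058, 0.191, 1.50 and 3.81 CPM in D30. The watered pools spread over more than an order of magnitude, all above every drought pool, with a log2 change of -7.92 (SE 0.85, edgeR adjusted p = 0.00115).

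Most loci called in batch 1 went the same way in batch 2, which had many more calls. Tested alone with 2 libraries against 2, batch 1 called 464 loci (2.23% of 20847) and batch 2 called 6908 (31.7% of 21761), at coefficients of biological variation of 0.218 and 0.203. Of 222 loci raised in batch 1, 183 (82.4%) were raised in batch 2, where 16.3% of all loci were. Of 239 lowered in batch 1 and tested in batch 2, 147 (61.5%) were lowered in batch 2, against 16.1% of all. As a share of the batch 2 calls, these are 5.5% of the raised and 4.46% of the lowered loci. The opposite direction was called for 24 loci. Of 3329 loci raised in batch 2 and tested in both, 68.4% had the same sign in batch 1, against 49.7% of all. Of 3293 lowered in batch 2, 67.7% had the same sign, against 50.3% of all. The median log2 changes of these loci in batch 1 were 0.20 and -0.20. The drought effect itself differed between batches at 1527 of 22049 loci (6.93%; edgeR interaction, adjusted p under 0.05), 792 with the higher (3.59%) and 735 with the lower change in batch 2 (3.33%), and for 1219 of these the change was larger in batch 2. The count ran from 83 without D30 replicate 1 to 3597 without W30 replicate 1, and was 121, 125, 287, 325, 844 and 3384 without W30 replicate 3, D30 replicate 2, W30 replicate 4, D30 replicate 4, D30 replicate 3 and W30 replicate 2. Of the loci called in the main test, 185 were among the 1527.

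The primary wall cellulose synthases showed the batch difference in all members. By edgeR, 0 of 6 loci were called over both batches (0 at an unadjusted p under 0.05, and 0 by DESeq2), while the interaction was called for 6 of 6. Their median log2 change was -0.58 in batch 1 and 2.49 in batch 2. LOC_Os05g08370 was at 18.9, 14.2, 6.13 and 5.80 CPM in W30 and at 9.38, 9.75, 40.0 and 66.0 CPM in D30. In batch 1 the drought libraries were the lower pair, a change that did not pass the test, and in batch 2 both were several times the watered ones, with log2 changes of -0.79 in batch 1 and 3.19 in batch 2. The difference between batches was 3.94 (SE 0.34, edgeR adjusted p = 0.00419). LOC_Os07g24190 was at 29.3, 26.2, 11.1 and 10.9 CPM in W30 and at 12.2, 14.3, 34.1 and 62.0 CPM in D30. In batch 1 the drought libraries were the lower pair and in batch 2 the higher pair, with log2 changes of -1.07 in batch 1 and 2.16 in batch 2, called in opposite directions (edgeR adjusted p = 0.0377 and 0.00853). Of 3 secondary wall cellulose synthases edgeR called 0 (0 at an unadjusted p under 0.05, and 1 by DESeq2). LOC_Os01g54620 was at 0.901, 0.312, 0.194 and 0.318 CPM in W30 and 0.609, 0.708, 1.55 and 8.28 CPM in D30, and only D30 replicate 4 was above 2 CPM. Markers of other tissues also moved with batch. LOC_Os06g48810 was at 0.0316, 0.297, 0 and 0 CPM in W30 and at 0.261, 0.245, 0.722 and 1.89 CPM in D30. This root marker was at 0 in both watered libraries of batch 2 and rose there, with the interaction called (edgeR adjusted p = 0.0467). LOC_Os06g04200 was at 0.221, 0.297, 3.50 and 2.91 CPM in W30 and at 0.188, 0.545, 0.321 and 0.531 CPM in D30. This endosperm marker was high in the watered libraries of batch 2 and fell there, a difference between batches of -3.40 (SE 0.76, edgeR adjusted p = 0.0383). Their part in the batch differences was not tested, and with 1 library left out the first was called only without W30 replicate 1 and the second only without W30 replicates 1 or 2. Of the 7 type A response regulators, 3 fell in batch 1 (42.9%, against 1.16% of all loci) and 6 in batch 2 (85.7%, against 15.5%). The interaction was called for 5 (71.4%, against 3.33% of all loci in that direction), each with the larger fall in batch 2. Among the PP2C phosphatases the interaction was called for 1 of 9. That locus, LOC_Os01g62760, had 22.9, 15.04, 39.0 and 39.5 CPM in W30 and 204, 202, 168 and 146 CPM in D30, with log2 changes of 3.42 in batch 1 and 2.03 in batch 2 and a difference of -1.42 (SE 0.27, edgeR adjusted p = 0.023). The chaperone locus LOC_Os05g38530 had log2 changes of 1.95 in batch 1 and 3.32 in batch 2, a difference of 1.34 (SE 0.18, edgeR adjusted p = 0.0103). The largest batch differences among loci with a mean of at least 5 CPM were at LOC_Os12g14440, with 1.87, 3.22, 1.19 and 0.409 CPM in W30 and 0.087, 0.858, 125 and 100 CPM in D30, and at LOC_Os07g05360, with 0, 0.534, 14.9 and 33.4 CPM in W30 and 0.42, 0.667, 0.812 and 0.344 CPM in D30. In the first, drought was lower in batch 1 and far higher in batch 2, and in the second it was lower in batch 2 alone. The batch differences of LOC_Os01g41710, LOC_Os01g62760, LOC_Os05g38530 and LOC_Os07g05360 were not called without D30 replicates 1 or 2 or without W30 replicates 3 or 4, nor were those of all but LOC_Os05g38530 without D30 replicate 4, while those of LOC_Os05g08370, LOC_Os12g04500 and LOC_Os12g14440 were called with each library left out.

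**Figure D3:**
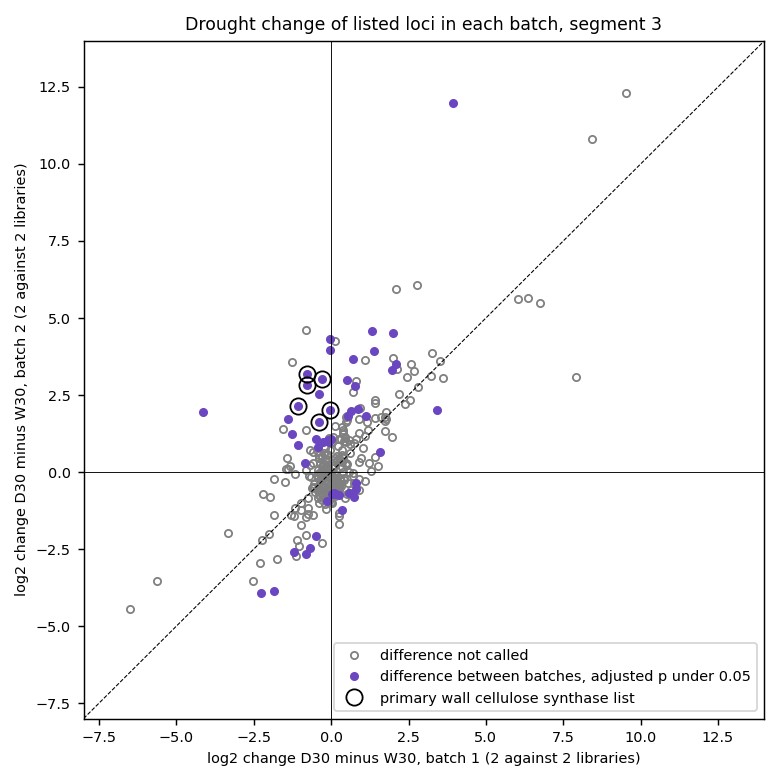
Log2 change of D30 against W30 in batch 1 (x axis) and batch 2 (y axis) for 318 listed loci tested in both, with 2 libraries per group in each batch. Filled points have a called difference between batches, ringed points are the 6 primary wall cellulose synthases, and the dashed line marks equal change. The ringed points lie above the line, at or below 0 in batch 1 and above 1.5 in batch 2.

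The same drought contrast was measured in leaves heated for 30 min at 40 °C, in libraries that the comparison above does not use. D40 against W40 in segment 3 called 1283 loci higher (5.89%) and 750 lower (3.44%), together 9.33% of 21786, with 1 of the 4 W40 pools in batch 1. This count was 7928 without W40 replicate 1, 641, 490 and 427 without W40 replicates 2, 3 and 4, and 337 and 398 without D40 replicates 3 and 4. Of 1337 loci raised at 30 °C and tested in both, 505 (37.8%) were raised at 40 °C, where 5.68% of all were, and 92.3% had the same sign. Of 1389 lowered at 30 °C, 330 (23.8%) were lowered at 40 °C, against 3.57% of all, and 89.4% had the same sign. As shares of the 40 °C calls these were 42.7% of the raised and 44.4% of the lowered loci. The opposite call was made for 1 and 4 loci.

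Of the 96 listed loci called at 30 °C and tested at 40 °C, 90 had the same sign there and 43 were called, all in the same direction. The PP2C locus LOC_Os09g15670 changed by 3.37 (SE 0.95, edgeR adjusted p = 0.0623) at 40 °C, and the ABA synthesis locus LOC_Os03g44380 by 4.27 (SE 0.75, edgeR adjusted p = 0.0168). For the receptor locus LOC_Os03g18600 the value was -4.10 (SE 0.82, edgeR adjusted p = 0.0236). The LEA locus LOC_Os11g26790 had 0.0615, 0, 0 and 0.124 CPM in W40 and 0.0243, 0.228, 602 and 808 CPM in D40. Its watered pools were again near 0 and its drought pools again differed widely. LOC_Os11g04720 of the type A response regulators changed by -2.58 (SE 0.74, edgeR adjusted p = 0.0658) and the nitrogen locus LOC_Os03g12290 by -2.01 (SE 0.38, edgeR adjusted p = 0.0205). The primary wall cellulose synthases, uncalled at 30 °C, rose in 5 of 6 loci at 40 °C.

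A test of the difference between the 2 temperatures called 4 of 22166 loci (0.018%), 2 each way (0.00902% each), with 2140 (9.65%) at an unadjusted p under 0.05, and none of the 340 listed loci tested. An effect called at 1 temperature alone is thus not shown to differ between them. The count was 0 without D30 replicates 1 or 2, W40 replicates 2, 3 or 4, or D40 replicates 2 or 4. It was 15 without W30 replicate 2 and 212 without W40 replicate 1, 1 without W30 replicate 3, and 2 without D30 replicate 3 or D40 replicate 3. With batch 2 alone it was 2724. LOC_Os03g51920 was at 4.02, 10.2, 23.2 and 25.4 CPM in W30 and at 178, 174, 374 and 395 CPM in D30. After heat the same locus had 218, 1744, 1844 and 2468 CPM in W40 and 171, 288, 2298 and 2709.8 CPM in D40. At 30 °C every drought pool lay far above every watered pool, and after heat every W40 pool lay far above every W30 pool. W40 replicate 1, at 218 CPM, was the lowest of the W40 pools. That pool and D40 replicates 1 and 2, which were also low beside the other heated pools, were in batch 1. The difference in effect was -4.39 (SE 0.62, edgeR adjusted p = 0.0439). LOC_Os06g03800 was at 15.5, 16.3, 9.71 and 11.2 CPM in W30 and at 11.0, 11.9, 9.09 and 8.72 CPM in D30. At 40 °C it had 4.43, 2.61, 2.68 and 2.93 CPM in W40 and 9.20, 9.49, 5.25 and 7.19 CPM in D40. The sign of its drought change turned from below 0 at 30 °C to above 0 at 40 °C, a difference of 1.48 (SE 0.18, edgeR adjusted p = 0.0178). At 30 °C its own change did not pass the test (edgeR adjusted p = 0.0619). Neither call held with each library left out, and no annotation was at hand for either.

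**Figure D4:**
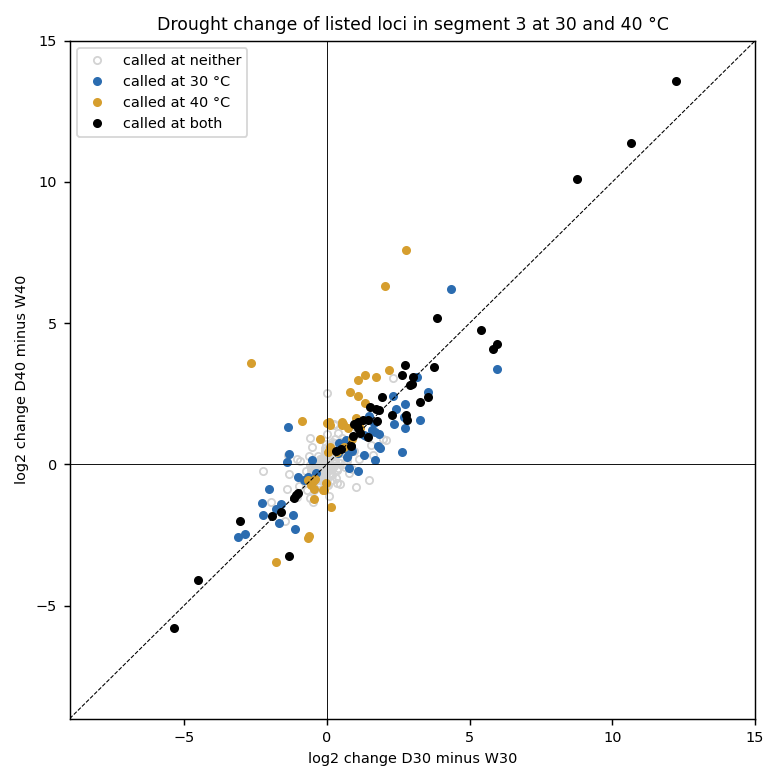
Log2 change under drought in segment 3 at 30 °C (x axis, D30 minus W30) and at 40 °C (y axis, D40 minus W40) for 325 listed loci tested at both. Black points were called at both temperatures, 43 in all, and each of these has the same sign on both axes.

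Along the blade, no locus had a drought change in segment 3 that was called different from that in the adjoining segments. A test of the difference called 0 of 23568 loci against segment 2 and 0 against segment 4 (edgeR, leaf pool as a block), with 707 (3%) and 477 (2.02%) at an unadjusted p under 0.05. Here a leaf pool was left out with all its segments. Against segment 2 and segment 4 alike, no locus was called with any 1 leaf pool left out, by RLE scaling or without a filter. Against segment 4, 3 were called in batch 2 alone. Each segment's own test called 1831 loci in segment 2 (8.51%), 3141 in segment 4 (14.7%), 2373 in segment 5 (11%) and 2795 in segment 6 (12.9%). These come from the same leaf pools as segment 3 and are not independent of it. Against segment 6, a comparison added after the data were seen, 133 loci differed (0.564%), 65 with a higher (0.276%) and 68 with a lower change (0.289%) in segment 3, with 3390 (14.4%) at an unadjusted p under 0.05. The count of 133 at the adjusted threshold ran from 18 without D30 replicate 4 to 755 without W30 replicate 2. It was 64, 28 and 27 without D30 replicates 1, 2 and 3, and 222, 43 and 23 without W30 replicates 1, 3 and 4.

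Of the listed loci, 5 differed between segments 3 and 6, all with the lower change in segment 3. LOC_Os04g36070 of the type A response regulators was at 9.87 ± 5.00 CPM in W30 and 2.38 ± 1.61 CPM in D30 in segment 3 and at 6.49 ± 5.30 CPM in W30 and 3.07 ± 1.75 CPM in D30 in segment 6 (SD, n = 4, scaled over the 40 libraries of both groups). Its watered level was higher in segment 3 and its drought level about equal, a difference in effect of -1.25 (SE 0.26, edgeR adjusted p = 0.0244). LOC_Os02g44870, the LEA locus found in watered leaves, was at 9.56 ± 4.87 CPM in W30 and 39.0 ± 30.5 CPM in D30 in segment 3 and at 5.75 ± 3.74 CPM in W30 and 42.6 ± 28.7 CPM in D30 in segment 6. The drought levels were close and the watered level was higher in segment 3, a difference of -1.08 (SE 0.25, edgeR adjusted p = 0.0424). LOC_Os10g37180 of photorespiration differed by -0.59 (SE 0.14, edgeR adjusted p = 0.0495), and LOC_Os05g44210 of the trehalose and raffinose list by -0.73 (SE 0.10, edgeR adjusted p = 0.000297). LOC_Os01g55240 of the gibberellin list was at 8.87 ± 7.11 CPM in W30 and 3.04 ± 0.839 CPM in D30 in segment 3 and at 1.35 ± 1.02 CPM in W30 and 2.48 ± 2.09 CPM in D30 in segment 6, a difference of -2.07 (SE 0.44, edgeR adjusted p = 0.0251). Among called loci with a mean of at least 5 CPM over the 8 libraries of segment 3, the largest difference was at LOC_Os01g28450. This locus, which has no list, was at 1.47 ± 1.77 CPM in W30 and 17.6 ± 32.4 CPM in D30 in segment 3 and at 194 ± 231 CPM in W30 and 7.44 ± 11.5 CPM in D30 in segment 6. In segment 3 that mean came mostly from D30 replicate 3, and the difference was 6.69 (SE 1.34, edgeR adjusted p = 0.0238). In batch 1 alone it turned to -3.255 (edgeR adjusted p = 0.696). Of these, LOC_Os05g44210 was called with each leaf pool left out and the others were not.

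**Figure D5:**
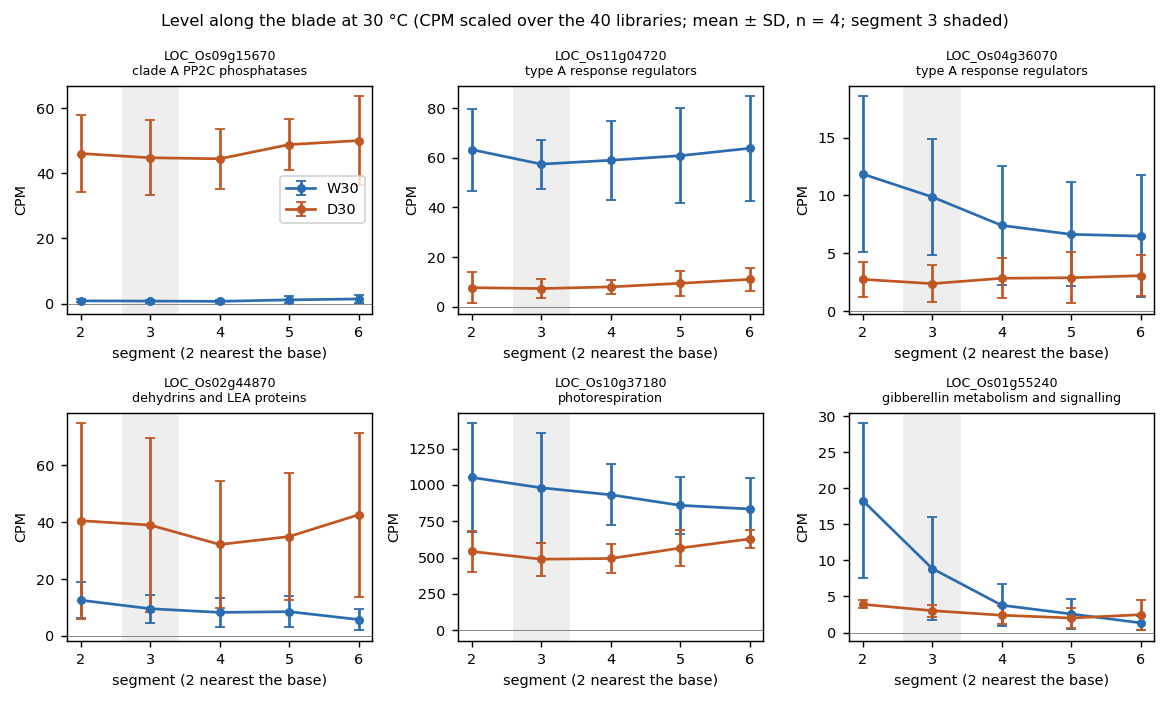
Mean level ± SD (y axis, CPM, n = 4) in segments 2 to 6 (x axis, 2 nearest the base) of W30 and D30 leaves for 6 loci, with segment 3 shaded. The PP2C locus LOC_Os09g15670 and the response regulator LOC_Os11g04720 have group means more than 1 SD apart in every segment shown, and the watered level of LOC_Os01g55240 falls from 8.87 CPM in segment 3 to 1.35 CPM in segment 6.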

How the data were processed

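Poly(A) RNA was sequenced as paired reads, per the labels' protocols. Tools named in the submitters' processing notes are featureCounts 2.0.6, HISAT2 2.2.1 and Picard 3.1.0. For genome build, strandedness and reads with several matches, nothing is given in the sources used here. Per the file headers, 3 tables hold raw counts, batch-corrected counts and FPKM. The raw counts deposited by the authors were used for every main result. Of raw counts from 1 to 20, 76.9% were even, so counts overstate independent fragments, and counts halved were an alternative. The batch-corrected values deposited by the authors are estimated counts, rounded here. The FPKM deposited by the authors followed those counts over length to within 1% in 96.9% of values for 13842 genes and served only in alternatives, as log2(FPKM + 1) and log2(FPKM + 0.1) in limma 3.58.1, which understates changes of low genes. The count tables held 42189 genes, 42004 with MSU locus IDs, and 42102 had FPKM.

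The 8 libraries were fitted in R 4.3.3 with edgeR 4.0.16: filterByExpr (minimum count 10, total 15), TMM scaling, robust quasi-likelihood F tests on soil water plus batch (5 residual degrees of freedom) and Benjamini-Hochberg adjustment at 0.05. SEs are the log2 change over the root of F. Interactions with batch, temperature and segment (leaf pool as a block) were fitted the same way. The steps were tested on simulated data. Replicates of a group differed by more than sampling noise (lowest chi-square per degree of freedom 12.4), and nothing says they came from separate sowings, so p-values measure the spread between these pools. Replicate numbers pair W30 and D30 only through batch: deviations of same-numbered libraries from their group means correlated by 0.313 to 0.435, and by -0.0889 to -0.028 once batch means were removed.

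Loci named are, per list, up to 2 called members with the smallest adjusted p (or, with none, that with the highest mean CPM), and the 2 largest rises and falls among loci of at least 5 CPM with groups apart. In each interaction they are 1 called member per list and the largest each way among called loci of at least 5 CPM. Some members picked by the interaction with batch are not described here, but the counts of named loci include them. Members, lists and rules were chosen with earlier results of these data known. Alternatives were other scalings, filters, DESeq2 1.42.0, other designs and each library left out, or between segments each leaf pool.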

Additional observations from a re-analysis of the deposited data

Results flagged for a closer look

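In 9 of 190 groups of 4 libraries of the named loci, 1 library stood apart from the others by Dixon's criterion, which chance does in about 1 of 20 groups. In W30 these were replicate 4 of the LEA locus LOC_Os11g26790 at 0.0682 CPM with the others at 0, replicate 1 of the photorespiration locus LOC_Os10g37180 at 1516 CPM, and replicate 1 of the response regulator LOC_Os04g36070 at 17.0 CPM. W30 replicate 2 stood apart at LOC_Os03g16030 (small heat shock list) at 1.04 CPM, at LOC_Os06g48810 (root markers) at 0.297 CPM and at LOC_Os01g55240 (gibberellin list) at 19.0 CPM. In D30, replicate 3 stood apart at LOC_Os05g39990 (expansins) at 2.58 CPM and at LOC_Os01g28450 at 65.1 CPM, and replicate 4 at LOC_Os01g54620 (secondary wall cellulose synthases) at 8.28 CPM.

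Drought effects differed by a test of the difference itself between segments 3 and 6, by -0.59 (log2) at LOC_Os10g37180, -1.25 at LOC_Os04g36070, -1.08 at LOC_Os02g44870, -0.73 at LOC_Os05g44210, -2.07 at LOC_Os01g55240 and 6.69 at LOC_Os01g28450. The effect at 40 °C minus that at 30 °C differed by 1.48 at LOC_Os06g03800 and by -4.39 at LOC_Os03g51920. The effect differed between batches at 1527 loci.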

How the results depend on the processing

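The 2749 loci called became 4453 with DESeq2, 666 with no batch term, 1572 with all 16 libraries of the segment, 464 in batch 1 alone, 6908 in batch 2 alone and 1198 with a replicate block. With limma they were 1524 on log2(FPKM + 1), 1665 on log2(FPKM + 0.1) and 1511 at a mean FPKM of at least 1, with 66.3%, 65% and 65.5% higher. RLE or upper quartile scaling, no filter, halved counts and batch-corrected counts gave 2740, 2761, 2634, 2806 and 1996. With 1 library left out the count ran from 1282 to 3779. The 97 listed loci called became 39 with no batch term, 64 with 16 libraries, 38 and 179 in batches 1 and 2, 57 with the replicate block, and 57 to 126 with a library left out. Batch 1 alone called 762 with no filter. The difference between batches ran from 83 to 3597 with a library left out. The difference between temperatures, 4 loci, became 2724 in batch 2 alone and 0 to 212 with a library left out, and D40 against W40 7492 in batch 2 alone and 337 to 7928. Segment 3 against 4 gave 3 in batch 2 alone. Segment 3 against 6, 133 loci, gave 84 with no filter, 1990 in batch 2 alone and 18 to 755 with a leaf pool left out. The cause of these shifts was not tested.

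Of 67 named loci called, 45 were called with each library left out, 64 under the 5 scaling, filter, halving and DESeq2 settings, and 67 kept their sign in every setting. The sign turned at 3 values. LOC_Os07g24190 and LOC_Os07g42370, not called over both batches, were called with the other sign at -1.07 in batch 1 alone (edgeR adjusted p = 0.0377) and 0.88 in batch 2 alone (edgeR adjusted p = 0.00856). LOC_Os01g28450 between segments was -3.255 in batch 1 alone. Depth limits loci such as LOC_Os11g26780, with 2 counts over W30, and 4 libraries a group in 2 batches limit every count above.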

Other observations

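Of 1341 raised loci with an MSU ID, 241 (18%) had a locus next to them in the tested order that was also raised, and 12% of all tested loci had such a neighbour. Of 1405 lowered loci, 298 (21.2%) had a lowered neighbour, against 12.7% of all tested loci. The order was taken from the IDs, no test was made, and overlapping genes, shared reads between neighbouring copies and strand could not be told apart in these counts.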
